A study of Mus musculus with 5 samples.

Results

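Naive lymphocytes are held in a resting state by a small set of transcription factors and by one cytokine receptor, and 8 such genes were followed here in blood mononuclear cells of mice. They were Lef1 (ENSMUSG00000027985), Tcf7 (ENSMUSG00000000782), Bach2 (ENSMUSG00000040270), Satb1 (ENSMUSG00000023927), Foxp1 (ENSMUSG00000030067), Foxo1 (ENSMUSG00000044167), Il7r (ENSMUSG00000003882) and Sox4 (ENSMUSG00000076431). They were taken by gene symbol, from a list made with earlier results of these data known, and each matched 1 of the 33696 genes listed for the libraries. Transcripts were counted as unique molecular identifiers (UMIs), 1 per captured RNA molecule, by 3′ single-cell RNA sequencing of C57BL/6N mice. Mononuclear cells were isolated from EDTA blood over Ficoll, cleared of red cells by lysis, and stored frozen until thawed for capture.

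The groups were 3 in number, all of the same strain. The NO2-OA group (1 library) came from mice kept on a high-fat diet (HFD) with the nitric oxide synthase inhibitor L-NAME for 15 weeks and given nitro-oleic acid (NO2-OA) for the last 4 of those weeks. The HFD + L-NAME group (2 libraries) had the same 15 weeks without NO2-OA, a combination that models HFpEF, heart failure in which the ejection fraction is preserved. The chow group (2 libraries) was fed regular chow. The labels do not say whether a library is 1 animal or a pool, or whether the libraries of a group are separate animals, so the spread between them may be technical.

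LEF1 and TCF-1, the product of Tcf7, are related DNA-binding proteins of the HMG-box family that act with beta-catenin and with TLE repressors and keep T cells in a naive or memory-like state. BACH2 is a repressor that holds back effector genes in T cells and plasma cell genes in B cells, and SATB1 organises chromatin in thymocytes and T cells. FOXP1 and FOXO1 are forkhead factors: FOXP1 restrains the exit of naive T cells from rest and is needed in early B cells, and FOXO1 drives Il7r and Klf2 in naive T cells. Il7r encodes the alpha chain of the interleukin-7 receptor, which keeps naive and memory T cells alive and in the mouse B lineage is largely a receptor of progenitors. SOX4 is an SRY-related factor of early B and T cell progenitors.

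The start-site sequences of 3 of the genes are shown because they differ in how many matches they hold to the core bound by LEF1 and TCF-1. All 8 genes were found by symbol among the RefSeq promoters of build GRCm38.p6, which run from 250 bases before to 50 bases after a listed start. Capitals mark CAAAG or its reverse complement CTTTG.

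Lef1, start 1 of 4, chr3:131110047-131110346, plus strand: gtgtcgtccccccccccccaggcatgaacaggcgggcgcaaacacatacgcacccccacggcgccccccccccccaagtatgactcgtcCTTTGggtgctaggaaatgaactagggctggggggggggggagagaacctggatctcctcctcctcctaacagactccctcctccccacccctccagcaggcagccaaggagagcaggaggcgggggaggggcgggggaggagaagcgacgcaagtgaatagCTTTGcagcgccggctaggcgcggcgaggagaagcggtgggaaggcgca
Bach2, start 1 of 1, chr4:32417185-32417484, plus strand: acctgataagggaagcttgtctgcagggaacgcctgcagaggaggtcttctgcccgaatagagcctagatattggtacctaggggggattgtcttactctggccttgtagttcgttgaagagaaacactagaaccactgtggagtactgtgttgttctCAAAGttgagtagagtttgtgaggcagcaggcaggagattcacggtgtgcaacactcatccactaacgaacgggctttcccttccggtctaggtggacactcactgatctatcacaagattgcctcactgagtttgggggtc
Il7r, start 1 of 1, chr15:9529827-9530126, minus strand: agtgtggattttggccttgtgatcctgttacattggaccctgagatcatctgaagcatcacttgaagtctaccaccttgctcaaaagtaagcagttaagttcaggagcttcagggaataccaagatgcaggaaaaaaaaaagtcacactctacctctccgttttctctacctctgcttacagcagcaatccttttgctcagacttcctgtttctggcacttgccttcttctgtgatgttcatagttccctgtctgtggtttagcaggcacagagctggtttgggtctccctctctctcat

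The Lef1 window held 2 matches, the Bach2 window 1 and the Il7r window 0, searched on both strands. Such a match is common, since 53.9% of the 32851 listed promoters hold at least 1. The genes had from 1 (Bach2) to 5 (Satb1) listed starts, and the windows of all of them were searched, so windows outnumbered genes. A forkhead motif (TGTTTAC, or GTAAACA on the other strand) was found in 1 of these windows, at start 2 of Tcf7, against 3.65% of all promoters. The BACH and AP-1 motif (TGAGTCA, or TGACTCA on the other strand) was in none of them, against 5.20% of all promoters.

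The libraries held 16061 barcodes (NO2-OA), 12810 and 8488 (HFD + L-NAME) and 17997 and 11337 (chow), with a median of 5741 to 7043.5 UMIs per barcode. Pairs of libraries shared 28 to 77 barcodes, at most 0.613% of the smaller library. Both libraries numbered 2 stood apart: cells with macrophage genes of the body cavities numbered 339 in HFD + L-NAME 2 and 114 in chow 2, against 0 in the other libraries. The deposited file names also fall into 2 sets, with both libraries numbered 2 in one and the other libraries in the other, and they do not say what the sets are, so values within a replicate number are given beside pooled results. Cell classes were clusters that carried markers of blood cell types, made without the 8 genes. Marker levels matched the names: Cd3e was at 232 to 442 CPM (the depth-scaled UMI count) in CD4 T-like cells and at 0.272 to 0.99 CPM in B-like cells, and Cd79a was at 631 to 1387 CPM in B-like cells and at 3.37 to 7.96 CPM in CD4 T-like cells.

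Across cell classes the 8 genes followed 3 patterns. Lef1, Tcf7 and Il7r were largely T cell transcripts, Bach2 and Satb1 were spread over all lymphocytes, and Foxp1 and Foxo1 were highest in B-like cells. Sox4 was rare in every class. In the plot of the members by class each gene has its own axis, because a UMI count does not allow levels to be compared between genes without regard to length and capture.

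**Figure D1:**
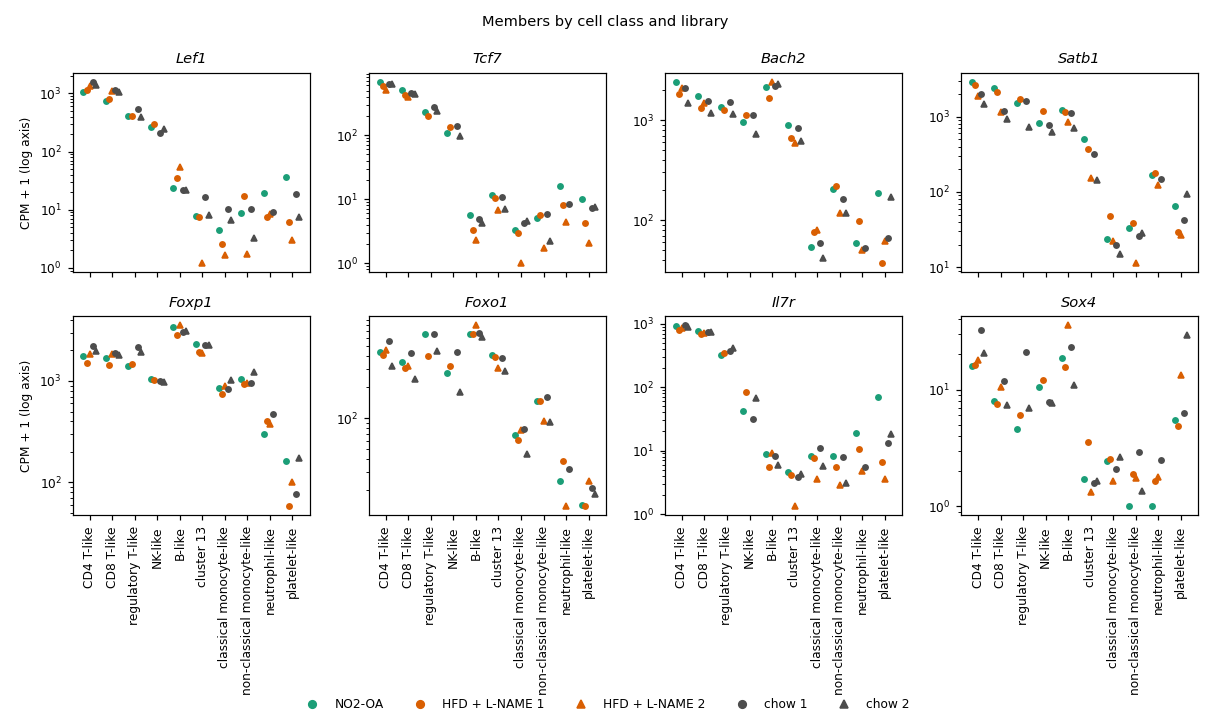
CPM + 1 of each of the 8 genes (log axis) in 10 cell classes, with 1 point per library; green is NO2-OA, orange HFD + L-NAME and grey chow, and circles and triangles are the libraries numbered 1 and 2. Classes with under 50 cells in a library have no point for it. Lef1, Tcf7 and Il7r drop sharply between NK-like and B-like cells, while Foxp1 has its highest points in B-like cells.

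Lef1 stood at 1046 CPM (NO2-OA), 1131 and 1346 CPM (HFD + L-NAME) and 1588 and 1401 CPM (chow) in CD4 T-like cells. In CD8 T-like cells it stood at 744 CPM (NO2-OA), 792 and 1098 CPM (HFD + L-NAME) and 1126 and 1059 CPM (chow), so the ranges of both classes overlapped. Compared within each library, CD4 T-like cells always had the higher Lef1 level. Regulatory T-like cells followed at 436 ± 64.3 CPM (SD, n = 4 libraries with at least 50 such cells) and NK-like cells at 250 ± 36.2 CPM (SD, n = 4), each below the range of the class before it. B-like cells averaged 30.5 ± 14.3 CPM (SD, n = 5), with no overlap to NK-like cells. After every cell was thinned to 1500 UMIs, the median library had a Lef1 UMI in 71.3% of CD4 T-like cells, 68.6% of CD8 T-like cells, 2.94% of B-like cells and 0.318% of classical monocyte-like cells, whose median depths before thinning ran from 5030 to 7616.5, 6509 to 10992.5, 5164.5 to 7244 and 10952.5 to 16745 UMIs. The unthinned shares were 88.4% to 94.4% in CD4 T-like, 6.51% to 15.4% in B-like and 1.03% to 3.10% in classical monocyte-like cells.

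Tcf7 had the same order in T-like and NK-like cells, with 609 ± 67.2 CPM in CD4 T-like, 448 ± 43.3 CPM in CD8 T-like (SD, n = 5 each), 236 ± 34.0 CPM in regulatory T-like and 119 ± 19.2 CPM in NK-like cells (SD, n = 4 each). In B-like cells it averaged 3.07 ± 1.31 CPM, overlapping with classical monocyte-like cells at 2.19 ± 1.38 CPM (SD, n = 5 each), and is read there as background. Il7r stood at 879 ± 61.0 CPM in CD4 T-like, 727 ± 35.2 CPM in CD8 T-like (SD, n = 5 each) and 363 ± 38.8 CPM in regulatory T-like cells (SD, n = 4), and none of these ranges overlapped. NK-like cells had 55.2 ± 23.4 CPM of Il7r (SD, n = 4), and B-like cells 6.52 ± 1.64 CPM against 6.22 ± 2.81 CPM in classical monocyte-like cells (SD, n = 5 each). Erythroid-like cells of the NO2-OA library held Lef1 at 145 CPM, with a UMI in 21.0% of cells, against 3.52% and 3.32% of such cells in HFD + L-NAME and 9.0% in chow 1. Lef1 was not alone in this class. The highest share in any library was 20.4% for Tcf7, 21.2% for Il7r, 47.8% for Bach2 and 45.1% for Satb1. For Foxp1 it was 51.0%, for Foxo1 36.7% and for Sox4 2.04%. Whether lymphocyte RNA has a part in these values was not tested.

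Bach2 was high in B and T cells, but within every library lower in CD8 T-like than in B-like and CD4 T-like cells. It averaged 2147 ± 281 CPM in B-like, 1973 ± 342 CPM in CD4 T-like and 1461 ± 225 CPM in CD8 T-like cells (SD, n = 5 each), and neighbours in that order overlapped. Regulatory T-like cells had 1321 ± 155 CPM and NK-like cells 983 ± 185 CPM (SD, n = 4 each), while classical monocyte-like cells had 61.1 ± 15.5 CPM (SD, n = 5). A further cluster, number 13, led by Jchain, Lmo7 and Sox5 and left without a name, had 721 ± 137 CPM (SD, n = 5).

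Satb1 averaged 2170 ± 585 CPM in CD4 T-like and 1555 ± 650 CPM in CD8 T-like cells (SD, n = 5 each), with 1386 ± 450 CPM in regulatory T-like cells (SD, n = 4) and 1005 ± 225 CPM in B-like cells (SD, n = 5). The spread between libraries was wide: CD8 T-like cells had 2375 CPM in NO2-OA, 2129 and 1143 CPM in HFD + L-NAME and 1197 and 931 CPM in chow. All 4 of these classes overlapped with their neighbour in the order. Within every library, however, Satb1 was higher in CD4 T-like than in CD8 T-like cells.

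The forkhead genes were B cell-heavy. Foxp1 stood at 3430 CPM (NO2-OA), 2836 and 3558 CPM (HFD + L-NAME) and 3027 and 3137 CPM (chow) in B-like cells, above every other class in every library. Cluster 13 came next at 2124 ± 194 CPM and CD4 T-like cells at 1859 ± 266 CPM (SD, n = 5 each). Unlike the T cell genes, Foxp1 was also plentiful in classical monocyte-like cells, at 871 ± 102 CPM (SD, n = 5). Foxo1 averaged 678 ± 71.3 CPM in B-like cells (SD, n = 5), 539 ± 130 CPM in regulatory T-like cells (SD, n = 4) and 435 ± 85.4 CPM in CD4 T-like cells (SD, n = 5), and these neighbours overlapped. Within every library Foxo1 was higher in B-like than in CD4 T-like cells. Sox4 averaged 19.8 ± 9.44 CPM in B-like and 19.6 ± 6.66 CPM in CD4 T-like cells, with 8.06 ± 2.03 CPM in CD8 T-like and 1.26 ± 0.409 CPM in classical monocyte-like cells (SD, n = 5 each).

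Compared over the same cells thinned to 1500 UMIs, 5 of the 8 genes had a UMI in a larger share of CD4 T-like than of B-like cells in all 5 libraries, and 4 did when cells were thinned to 3000 UMIs. The likeness of patterns was described by Pearson correlations of log2 CPM over 30 sums (6 classes by 5 libraries), which share libraries, depth and class makeup. Among 7480 genes the closest to Tcf7 was Bcl11b, a zinc-finger factor of T cell identity (r = 0.992), and the adaptor gene Skap1 was among the 3 closest. Bcl11b was also the closest to Il7r (r = 0.987), with Cd3e and Skap1 next. Lef1 was closest to Lck, the kinase of the T cell receptor (r = 0.976), followed by Nsg2 and Bicdl1. Bach2 was closest to P2ry10, Zc3h14 and Ets1 (r = 0.977 for P2ry10), Satb1 to Ablim1, Gimap9 and S1pr1 (r = 0.986 for Ablim1), Foxp1 to Ddx50, Arid1b and Bptf (r = 0.990 for Ddx50), and Foxo1 to Eif4a2, Map4k2 and Rasa2 (r = 0.982 for Eif4a2). Sox4 had the loosest matches, with Tmem263, Fam3c and Atpaf1 (r = 0.914 for Tmem263). Among the members themselves the closest pairs were Tcf7 with Il7r (r = 0.987), Lef1 with Tcf7 (r = 0.960), Bach2 with Satb1 (r = 0.954) and Foxp1 with Foxo1 (r = 0.926), and the loosest was Foxp1 with Sox4 (r = 0.242).

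Within the T-like classes, sub-clusters that carried memory or effector transcripts held less of most members. CD4 T-like sub-cluster 4 had 453 CPM of S100a4, a calcium-binding protein gene of memory T cells. It had 285 CPM of Lef1, 500 CPM of Satb1, 829 CPM of Bach2 and 947 CPM of Foxp1, over all libraries together. The other 5 CD4 T-like sub-clusters ranged from 1238 to 1823 CPM of Lef1 and from 2271 to 3510 CPM of Satb1, so sub-cluster 4 lay far below them. Tcf7 was closer, with 529 CPM in sub-cluster 4 and 556 to 807 CPM in the others.

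In CD8 T-like cells, sub-cluster 13 had 9134 CPM of Ccl5, a chemokine of memory and effector CD8 T cells, with 280 CPM of Lef1, 371 CPM of Satb1 and 746 CPM of Bach2. Sub-cluster 5 had 1457 CPM of Ccl5, with 569 CPM of Lef1 and 1429 CPM of Satb1. The other CD8 T-like sub-clusters had 839 to 1491 CPM of Lef1. The pair of regulatory T-like sub-clusters differed in the same genes: sub-cluster 18, with 1413 CPM of S100a4, had 510 CPM of Bach2, 347 CPM of Satb1 and 773 CPM of Foxp1, and sub-cluster 15 had 2018, 2175 and 2576 CPM of those genes. Their Foxo1 stood closer, at 535 CPM and 601 CPM. The sub-clusters were made from the same cells, so these values are a description and were not tested.

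**Figure D2:**
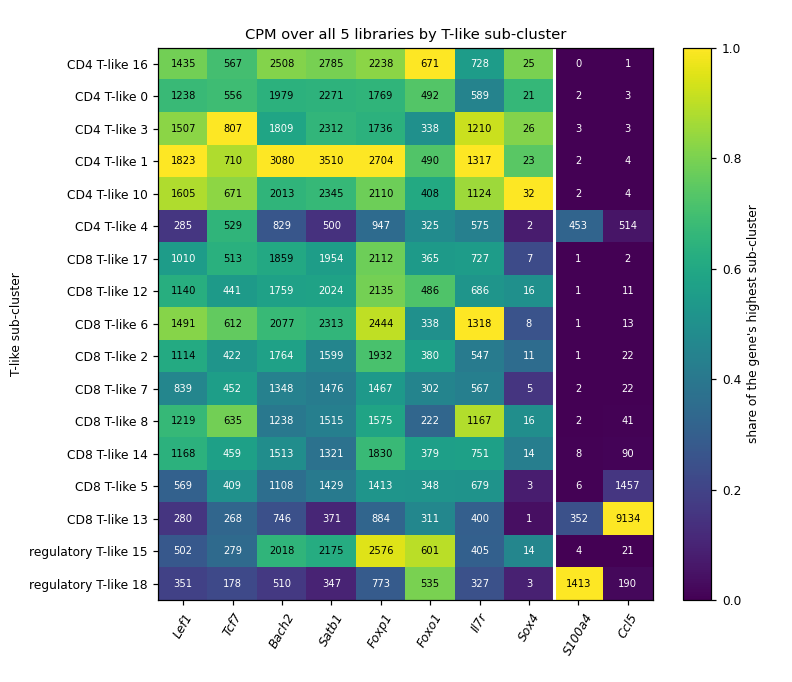
CPM over all 5 libraries of the 8 genes and of S100a4 and Ccl5 (columns) in the named T-like sub-clusters (rows); numbers are CPM, and colour is the share of each gene's highest sub-cluster. CD4 T-like 4, CD8 T-like 13 and regulatory T-like 18 have low shares of Lef1, Satb1 and Bach2 and high ones of S100a4 or Ccl5.

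To ask whether the members move with effector transcripts across libraries, each T-like class was split by 1 gene that is no member and no class marker, and the sums of both sides were compared within libraries by edgeR's quasi-likelihood test over all genes with Benjamini-Hochberg adjustment. Such a side is a range of cells cut by 1 gene and not a cell type, and its CPM is scaled by the trimmed mean of M values (TMM). CD4 T-like cells with at least 1 S100a4 UMI made up 8.38% of the class in NO2-OA, 6.38% and 12.4% in HFD + L-NAME and 3.13% and 10.9% in chow. Lef1 in these S100a4-positive cells was at 296 CPM (NO2-OA), 303 and 433 CPM (HFD + L-NAME) and 353 and 442 CPM (chow), and in the S100a4-negative cells at 1136 CPM (NO2-OA), 1288 and 1571 CPM (HFD + L-NAME) and 1607 and 1609 CPM (chow). Every positive sum lay below every negative one.

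All 8 members were lower in S100a4-positive CD4 T-like cells, where 15.2% of 9582 genes tested were lower and 18.0% higher. Each was lower in 5 of 5 libraries, as were 18.5% of all genes. The fall was deepest for Satb1, at 325 to 670 CPM in positive and 1704 to 3196 CPM in negative cells (log2 change -2.30 ± 0.145 SE, adjusted p = 2.73e-08). Lef1 changed by -1.98 ± 0.09 (adjusted p = 2.94e-13), Bach2 by -1.47 ± 0.08, Foxp1 by -1.33 ± 0.08 and Sox4 by -1.39 ± 0.29. Tcf7 changed least, by -0.52 ± 0.09, with Foxo1 at -0.62 ± 0.09 and Il7r at -0.71 ± 0.11. The median over the 8 members was -1.36 and over all genes -0.02. Summed markers of regulatory T cells were at 459 to 945 CPM in positive and 91.7 to 169 CPM in negative cells, and the positive cells were the deeper ones in every library, with medians of 6554.5 to 9012 against 4992 to 7507 UMIs; the part of either in the result was not tested, beyond thinning every cell to 1500 UMIs, after which 7 members were called and Sox4 had too few molecules for a test. Other lists whose ranges did not overlap were also higher in positive cells: CD4 T cell markers at 664 to 1154 CPM against 355 to 572 CPM, CD8 T cell markers at 18.0 to 76.7 CPM against 4.50 to 10.8 CPM, non-classical monocyte markers at 270.1 to 449 CPM against 161 to 241 CPM and plasma cell markers at 42.6 to 48.1 CPM against 27.6 to 34.8 CPM. Their part was not tested.

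CD8 T-like cells with at least 1 Ccl5 UMI made up 25.3% of the class in NO2-OA, 26.3% and 27.3% in HFD + L-NAME and 17.2% and 32.2% in chow. Lef1 in Ccl5-positive cells was at 398 CPM (NO2-OA), 493 and 606 CPM (HFD + L-NAME) and 668 and 683 CPM (chow), and in Ccl5-negative cells at 855 CPM (NO2-OA), 999 and 1348 CPM (HFD + L-NAME) and 1205 and 1360 CPM (chow). Again no sum of one side reached the other side.

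Of the members, 7 of 8 were lower in Ccl5-positive CD8 T-like cells, where 12.7% of 11306 genes tested were lower and 12.5% higher. Lef1 changed by -1.02 ± 0.05 (log2 ± SE, edgeR adjusted p = 4.69e-10), Bach2 by -0.66 ± 0.05, Foxp1 by -0.52 ± 0.04, Tcf7 by -0.37 ± 0.06 and Sox4 by -2.11 ± 0.23. Sox4 rested on few molecules, at 1.03 to 4.48 CPM in positive and 8.82 to 12.7 CPM in negative cells. Satb1 changed by -0.47 ± 0.11 (adjusted p = 0.0158), a call that was lost without HFD + L-NAME 2 at nearly the same size (-0.46, adjusted p = 0.077), and the change shrank to -0.15 with finer clusters. Il7r changed by -0.25 ± 0.08 (adjusted p = 0.0469), which passed in 6 of 13 alternatives. Foxo1 was at 309 CPM (NO2-OA), 321 and 309 CPM (HFD + L-NAME) and 414 and 225 CPM (chow) in positive cells, against 349, 331, 334, 409.5 and 263 CPM in negative cells of the same libraries, and did not pass (-0.11 ± 0.06, adjusted p = 0.193). The Ccl5-positive cells were again deeper, with medians of 7292 to 12980 against 6326 to 10540 UMIs, and had 367 to 652 CPM of summed classical monocyte markers, among them Ly6c2, against 95.7 to 208 CPM. Markers of NK cells were also higher in positive cells, at 311 to 383 CPM against 193 to 231 CPM, and so were those of gamma-delta T cells (3.84 to 29.4 CPM against 1.94 to 3.19 CPM), while those of plasmacytoid dendritic cells were lower, at 29.4 to 39.1 CPM against 80.3 to 106 CPM. The part of these was not tested. With every cell thinned to 1500 UMIs the change of Satb1 was larger in size (-0.88) and did not pass (adjusted p = 0.0516).

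The gene lists around the members were counted in the same splits. Of 14 trafficking and FOXO1-linked genes, 8 were lower and none higher in S100a4-positive CD4 T-like cells, and 9 were lower and none higher in Ccl5-positive CD8 T-like cells. They included the lymph node homing receptor Ccr7 (log2 change -1.38 ± 0.11 in CD4 T-like and -0.79 ± 0.10 in CD8 T-like cells) and the PI3-kinase inhibitor Pik3ip1 (-1.82 ± 0.15 in CD4 T-like cells). Of the partners and targets of LEF1 and TCF-1, 15 of 16 were tested in both T-like classes: 5 were lower and 4 higher in S100a4-positive CD4 T-like cells, and 6 lower and 1 higher in Ccl5-positive CD8 T-like cells. The deepest were Igfbp4, a growth factor-binding protein gene of naive T cells (-2.79 ± 0.23 in CD4 T-like and -2.62 ± 0.10 in CD8 T-like cells), Actn1 (-1.78 ± 0.12 and -0.88 ± 0.09), Dapl1 (-1.29 ± 0.19 and -1.17 ± 0.08) and the beta-catenin cofactor Bcl9 (-2.22 ± 0.30 and -0.98 ± 0.16).

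Of 17 tested brakes on growth and division, 5 were lower and 2 higher in S100a4-positive CD4 T-like cells, with Txnip at -1.47 ± 0.10 and Zfp36l2 at 0.59 ± 0.13, and 7 were lower and 1 higher in Ccl5-positive CD8 T-like cells, with Zfp36l1 at -0.55 ± 0.07. In interleukin-7 signalling, 4 of 14 genes were lower and 2 higher in the CD4 split and 3 were lower and none higher in the CD8 split; the survival gene Bcl2 changed by -1.29 ± 0.15 in S100a4-positive CD4 T-like cells, and the signal transducers Stat5b and Stat5a by -0.66 ± 0.06 and -0.59 ± 0.09 in Ccl5-positive CD8 T-like cells. Effector and memory genes ran the other way: 13 of 15 tested were higher and none lower in the CD4 split, and 11 of 16 were higher and 3 lower in the CD8 split. Cd44, the classic marker of antigen-experienced T cells, changed by 2.71 ± 0.11 in CD4 T-like and 2.82 ± 0.09 in CD8 T-like cells. Of the members' own paralogs, 6 of 13 were tested in each split, with 2 lower in the CD4 split and 4 lower in the CD8 split, and none higher. They included Foxo3 in both (-0.56 ± 0.12 and -0.38 ± 0.08) and Tcf7l2 in Ccl5-positive CD8 T-like cells (-2.44 ± 0.19).

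**Figure D3:**
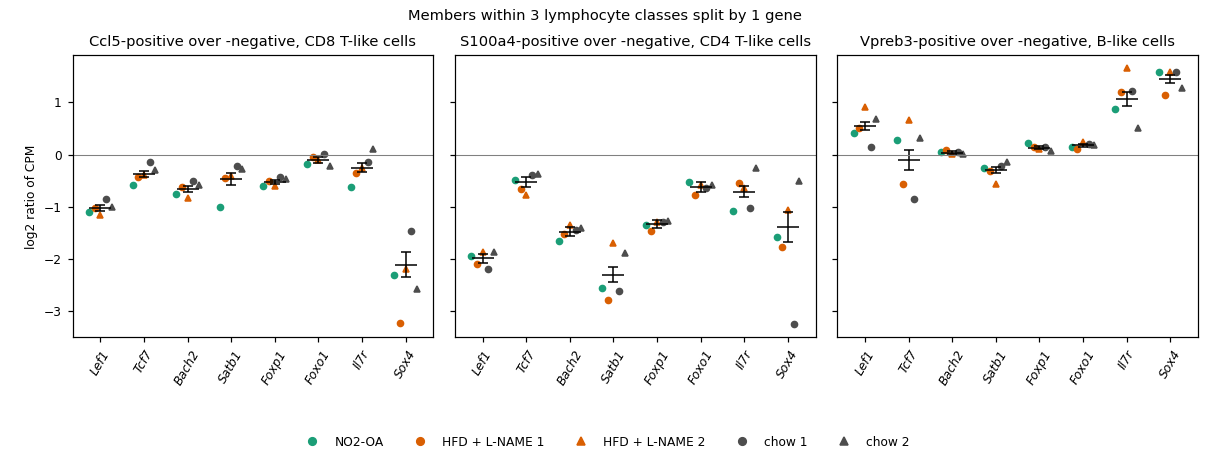
Log2 ratio of CPM in gene-positive over gene-negative cells (y axis) for the 8 genes (x axis) in Ccl5-split CD8 T-like, S100a4-split CD4 T-like and Vpreb3-split B-like cells; points are the 5 libraries, and black bars are the edgeR log2 change ± 1 SE. All points of Lef1, Bach2 and Foxp1 lie below 0 in both T-like panels, and all points of Sox4 and Il7r lie above 0 in the B-like panel.

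B-like cells were split by Vpreb3, a surrogate light chain gene that is high in immature B cells. Vpreb3-positive cells made up 31.5% of the class in NO2-OA, 33.8% and 56.6% in HFD + L-NAME and 26.0% and 45.3% in chow. Of the members, 5 were higher and 1 lower, where 12.2% of 13512 genes tested were higher and 10.3% lower. The members with the largest rise were Sox4 and Il7r. Sox4 was at 31.4 CPM (NO2-OA), 22.9 and 45.5 CPM (HFD + L-NAME) and 42.6 and 14.5 CPM (chow) in Vpreb3-positive cells, against 10.5, 10.4, 15.3, 14.3 and 5.95 CPM in Vpreb3-negative cells of the same libraries (log2 change 1.44 ± 0.08 SE). Il7r was at 6.00 to 12.1 CPM in positive and 3.20 to 5.97 CPM in negative cells (1.06 ± 0.13), near the 6.22 CPM of classical monocyte-like cells.

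Lef1 changed by 0.54 ± 0.08 in Vpreb3-positive B-like cells and was higher in 5 of 5 libraries, at 22.6 to 64.5 CPM in positive and 16.5 to 34.3 CPM in negative cells. Foxo1 (0.18 ± 0.03) and Foxp1 (0.14 ± 0.02) rose by little, in 5 of 5 libraries; 15.4% of all genes were higher in all 5. Satb1 fell by 0.30 on the log2 scale (SE 0.06), with lower values in 5 of 5 libraries. Bach2 (0.04 ± 0.02, adjusted p = 0.169) and Tcf7 (-0.10 ± 0.19, adjusted p = 0.769) did not pass. With finer clusters neither Lef1 nor Satb1 passed, though the change of Lef1 was larger (0.76, adjusted p = 0.112) and that of Satb1 smaller in size (-0.10, adjusted p = 0.351). With cells thinned to 1500 UMIs before the split, Lef1 changed by 0.25 and did not pass (adjusted p = 0.304).

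In the Vpreb3 split most lists had calls in both directions. Trafficking and FOXO1-linked genes had 4 higher and 5 lower of 14, brakes on growth and division 5 and 5 of 18, interleukin-7 signalling 3 and 3 of 13 tested, and partners and targets of LEF1 and TCF-1 3 and 1 of 12 tested. Effector and memory genes had 5 higher and none lower of 13 tested, led by Zeb2 (0.54 ± 0.04) and Irf4 (0.33 ± 0.03), both also B cell genes. Among the paralogs, 4 of 8 tested were higher and none lower, with Tcf7l2, a relative of Lef1 and Tcf7, at 1.26 ± 0.06 and Sox5 at 1.08 ± 0.14. Myb, a factor of blood progenitors, changed by 0.91 ± 0.10, and Gfi1, a repressor downstream of cytokine receptors, by 1.20 ± 0.09.

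Among the 5 B-like clusters, 1 had levels apart from the rest. This cluster, number 3, was led by Agbl1, Akap12 and Vpreb3, and over all libraries it had 79.3 CPM of Lef1, against 12.2 to 25 CPM in the other 4 B-like clusters. Its Sox4 was at 64.4 CPM against 3.61 to 12 CPM, its Il7r at 16.2 CPM against 2.66 to 3.92 CPM, its Foxp1 at 4005 CPM against 2772 to 3028 CPM and its Foxo1 at 911 CPM against 594 to 631 CPM. Its Satb1 was lower, at 660 CPM against 1047 to 1153 CPM, and its Tcf7, at 2.73 CPM, lay just under the 2.85 to 5.05 CPM of the others. The cluster came from the same counts, so these levels are a description.

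The HFD + L-NAME libraries were compared with chow, and NO2-OA with HFD + L-NAME, in 6 classes that had at least 50 cells in every library: B-like, CD4 T-like, CD8 T-like, both monocyte-like classes and platelet-like cells. No member passed an adjusted p of 0.05 in edgeR's quasi-likelihood test in any of them, and none in DESeq2. Few other genes did: 0.0% of 16583 genes in B-like, of 14271 in CD4 T-like and of 14672 in CD8 T-like cells, where 242, 273 and 216 genes had an unadjusted p under 0.05. DESeq2 called 4, 4 and 2 genes in those classes, none of them a member. For NO2-OA over HFD + L-NAME, where the lone NO2-OA library is assumed to vary like the others, 0.0% of genes passed in the same 3 classes by edgeR (297, 260 and 237 with an unadjusted p under 0.05) and DESeq2 called 49 genes in B-like and 34 in CD4 T-like cells, all lower, and 1 higher and 23 lower in CD8 T-like cells, again with no member. No gene of the 6 lists around the members passed in a lymphocyte class either. In HFD + L-NAME over chow the effector and memory genes had a median log2 change of 0.71 in CD4 T-like and 0.54 in CD8 T-like cells, beside 0.00 and -0.01 over all genes, and -0.16 in B-like cells. The medians of the other 5 lists lay between -0.18 and 0.32 in the 3 classes.

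**Figure D4:**
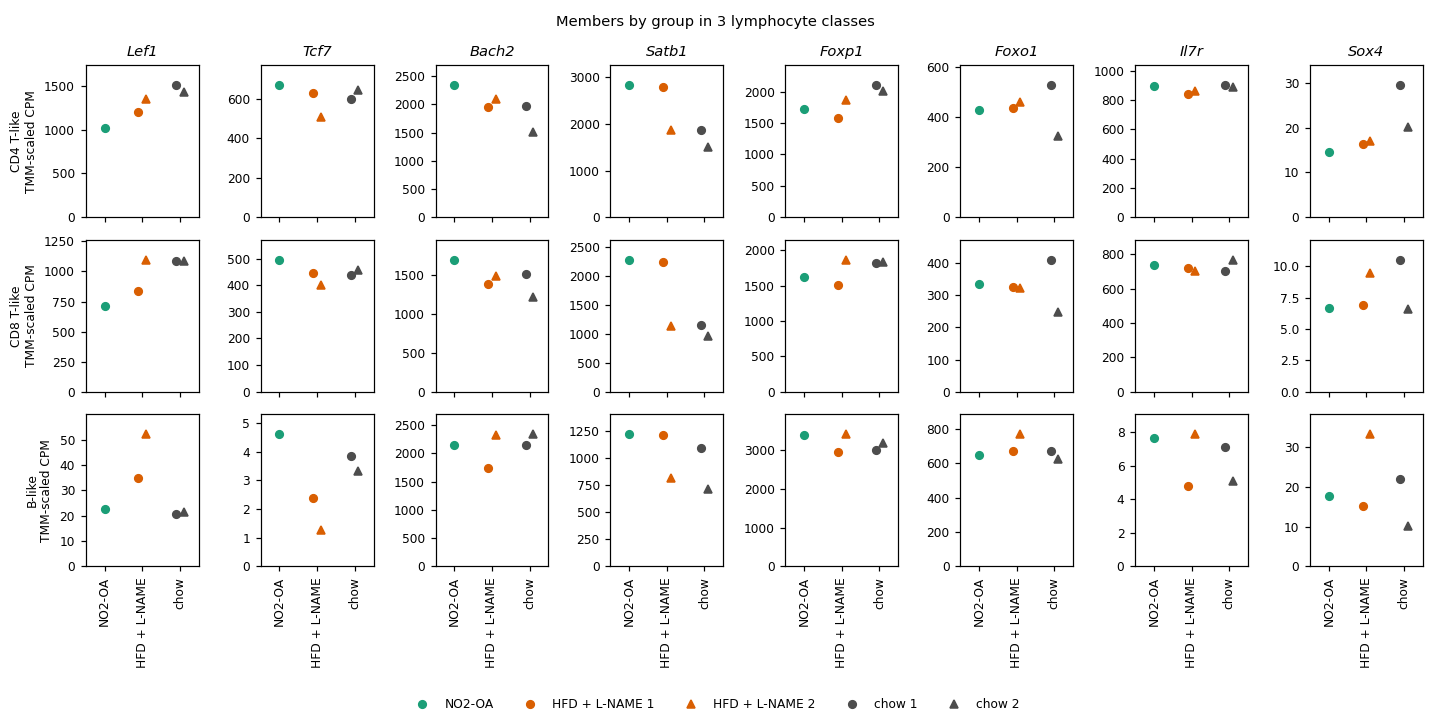
TMM-scaled CPM of the 8 genes (columns) in CD4 T-like, CD8 T-like and B-like cells (rows) by group, each axis from 0; points are libraries, with circles and triangles for the numbers 1 and 2. In B-like cells both HFD + L-NAME points of Lef1 lie above the chow and NO2-OA points, and in CD4 T-like cells they lie below both chow points.

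In the comparisons of groups CPM is TMM-scaled unless stated. In CD4 T-like cells Lef1 was at 1019 CPM in NO2-OA, 1201 and 1355 CPM in HFD + L-NAME and 1509 and 1427 CPM in chow. Both HFD + L-NAME libraries were lower than both chow libraries, and NO2-OA was lower still. The changes were small beside the error, at -0.20 ± 0.29 for HFD + L-NAME over chow and -0.33 ± 0.35 for NO2-OA over HFD + L-NAME (log2 ± SE; adjusted p 1.00 for both). Within replicate numbers, HFD + L-NAME over chow was -0.33 for number 1 and -0.07 for number 2. In CD8 T-like cells Lef1 was at 716 CPM in NO2-OA, 835 and 1098 CPM in HFD + L-NAME and 1085 and 1091 CPM in chow (-0.17 ± 0.28), and the HFD + L-NAME libraries overlapped with chow.

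Satb1 varied between the replicate numbers of a group, and no change between groups passed with all 5 libraries. Its HFD + L-NAME and chow values overlapped in CD8 T-like and B-like cells, though not in CD4 T-like cells. In CD8 T-like cells Satb1 was at 2283 CPM in NO2-OA, 2246 and 1143 CPM in HFD + L-NAME and 1153 and 959 CPM in chow (HFD + L-NAME over chow 0.68 ± 0.36). Within replicate numbers the log2 difference was 0.96 for number 1 and 0.25 for number 2, and without chow 1 the pooled change was 0.82 (adjusted p = 0.0345). Here and below, a fit without 1 library leaves a single library in that group, which is assumed to vary like the other groups, so a p that passes in this way does not support the pooled change. In CD4 T-like cells it was at 2833 CPM in NO2-OA, 2795 and 1872 CPM in HFD + L-NAME and 1869 and 1510 CPM in chow (0.47 ± 0.33; 0.58 and 0.31 within numbers). In B-like cells it was at 1217 CPM in NO2-OA, 1209 and 811 CPM in HFD + L-NAME and 1090 and 708 CPM in chow (0.17 ± 0.32; 0.15 and 0.20 within numbers). In the 3 classes the NO2-OA library lay close to HFD + L-NAME 1, with which it shares its set of file names. Chow 1 is in that set too. It lay lower than both, at 1153 CPM in CD8 T-like, 1869 CPM in CD4 T-like and 1090 CPM in B-like cells. The part of the file sets was not tested.

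The remaining members had no call. In CD4 T-like cells Tcf7 was at 669 CPM in NO2-OA, 629 and 508 CPM in HFD + L-NAME and 599 and 643 CPM in chow, and Il7r at 896 CPM in NO2-OA, 840 and 867 CPM in HFD + L-NAME and 904 and 890 CPM in chow. Foxp1 was at 1726 CPM in NO2-OA, 1582 and 1862 CPM in HFD + L-NAME and 2107 and 2006 CPM in chow. Bach2 in CD4 T-like cells was at 2340 CPM in NO2-OA, 1947 and 2085 CPM in HFD + L-NAME and 1978 and 1508 CPM in chow. Of the 8 members there, 4 (Lef1, Foxp1, Il7r and Sox4) had both HFD + L-NAME libraries below both chow libraries and 1 (Satb1) had both above, where 12.5% and 12.4% of all genes did. In CD8 T-like cells no member was free of overlap in either direction, beside 12.9% of genes lower and 12% higher.

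In B-like cells 2 members (Lef1 and Foxo1) had both HFD + L-NAME libraries above both chow libraries and 1 (Tcf7) had both below, where 12% and 11.6% of all genes did. Foxo1 was at 647 CPM in NO2-OA, 674 and 769 CPM in HFD + L-NAME and 670 and 627 CPM in chow, a small difference. Tcf7 was at 4.61 CPM in NO2-OA, 2.37 and 1.25 CPM in HFD + L-NAME and 3.85 and 3.32 CPM in chow (-0.96 ± 0.41 for HFD + L-NAME over chow and 1.32 ± 0.47 for NO2-OA over HFD + L-NAME, adjusted p 1.00), a level of background. Summed T cell markers in B-like cells were also lowest in both HFD + L-NAME libraries, though highest in chow, at 12.9 CPM in NO2-OA, 8.80 and 6.25 CPM in HFD + L-NAME and 15.8 and 15.6 CPM in chow, with none of the 8 markers at 0; their part in the values of Tcf7 was not tested. Bach2 was at 2148 CPM in NO2-OA, 1751 and 2330 CPM in HFD + L-NAME and 2150 and 2341 CPM in chow, Foxp1 at 3410 CPM in NO2-OA, 2951 and 3419 CPM in HFD + L-NAME and 3000 and 3193 CPM in chow, and Sox4 at 17.7 CPM in NO2-OA, 15.1 and 33.3 CPM in HFD + L-NAME and 22.1 and 10.1 CPM in chow. All 3 overlapped between the groups.

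Of the 8 members in the 3 lymphocyte classes, Lef1 in B-like cells had the largest fitted log2 change in size between HFD + L-NAME and chow. There it was at 22.8 CPM in NO2-OA, 34.8 and 52.1 CPM in HFD + L-NAME and 20.8 and 21.3 CPM in chow. Both HFD + L-NAME libraries lay above the others, and NO2-OA lay close to chow. The log2 change was 1.05 ± 0.24 for HFD + L-NAME over chow (0.74 within number 1 and 1.29 within number 2) and -0.93 ± 0.31 for NO2-OA over HFD + L-NAME (-0.61 against HFD + L-NAME 1), and neither passed after adjustment over all genes (adjusted p 1.00 for both, with unadjusted p of 0.00214 and 0.0147). With the replicate number, which follows the sets of file names, as a block, HFD + L-NAME over chow did pass in edgeR (1.02, adjusted p = 0.0245). The block adds a term to a fit of 5 libraries and leaves less to estimate the spread, so this p calls for caution.

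The contrast between T-like and B-like cells was tested directly, in 1 fit over both classes with the library as a block. The change of Lef1 in HFD + L-NAME over chow was lower in CD4 T-like than in B-like cells by a log2 difference of -1.23 ± 0.18 (edgeR adjusted p = 0.00936), and lower in CD8 T-like than in B-like cells by -1.20 ± 0.15 (adjusted p = 0.00174). In these fits 0.0174% of 17204 genes and 0.0171% of 17514 genes were lower. DESeq2 gave the same 2 calls. Between CD4 and CD8 T-like cells the difference was -0.04 ± 0.09 and did not pass. No other member differed between classes, and for NO2-OA over HFD + L-NAME no member did, with Lef1 at 0.58 ± 0.22 in CD4 T-like over B-like cells. Without chow 1 the CD8 call was lost (-1.19, adjusted p = 0.0642), and both were lost with finer clusters (-1.01 and -0.96, adjusted p = 0.102 and 0.348).

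Lef1 was then read within B-like cluster 3, a set of cells examined after the values of the whole class were seen. Lef1 had 337 UMIs in 791 such cells of NO2-OA, 588 in 878 and 909 in 1114 of HFD + L-NAME, and 254 in 834 and 324 in 1042 of chow. As unscaled CPM, with exact 95% Poisson intervals that cover counting error alone, this was 73.2 (65.6 to 81.5) in NO2-OA, 105 (96.5 to 114) and 105 (98.2 to 112) in HFD + L-NAME, and 50.7 (44.7 to 57.4) and 49.7 (44.4 to 55.4) in chow. The libraries of a group lay on top of each other, and the NO2-OA library lay between both groups. With cells thinned to 1500 UMIs, a Lef1 UMI was found in 8.54% of them in NO2-OA, 11.5% and 11.7% in HFD + L-NAME and 6.76% and 6.97% in chow, against 0% to 0.784% of classical monocyte-like cells.

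In cluster 3 alone the log2 change of Lef1 was 1.05 ± 0.19 for HFD + L-NAME over chow (1.09 and 1.01 within numbers 1 and 2) and -0.52 ± 0.23 for NO2-OA over HFD + L-NAME, and neither passed after adjustment over 12889 genes (adjusted p 1.00 for both, unadjusted p of 0.000465 and 0.0567), of which 0.0% passed. With the chow side cut to 1 library the change was 1.05 in each case (adjusted p of 0.00402 without chow 1 and 0.0012 without chow 2), with the spread taken from the other groups. Of the members, 1 (Lef1) had both HFD + L-NAME libraries above both chow libraries there, beside 12.9% of all genes. In the remaining B-like cells Lef1, again as unscaled CPM, was at 11.7 CPM in NO2-OA, 18.9 and 9.24 CPM in HFD + L-NAME and 15.7 and 12.6 CPM in chow, with overlapping groups (0.02 ± 0.35). The difference between cluster 3 and the remaining B-like cells was 1.04 ± 0.30 and did not pass (adjusted p 1.00; 0.0% of 14396 genes passed).

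Without cluster 3 the change of Lef1 in B-like cells was 0.02, and the differences of CD4 T-like and CD8 T-like from B-like cells were -0.21 and -0.21 (adjusted p 1.00 for both). Cluster 3 made up 17.1% of B-like cells in NO2-OA, 15.6% and 45.1% in HFD + L-NAME and 13.7% and 21.0% in chow, so its share and its Lef1 level both enter the value of the whole class. Other members in cluster 3 did not follow Lef1: Sox4 was at 72.7 CPM in NO2-OA, 58.7 and 66.3 CPM in HFD + L-NAME and 101 and 31.3 CPM in chow, and Il7r at 21.3 CPM in NO2-OA, 17.5 and 15.4 CPM in HFD + L-NAME and 23.6 and 6.74 CPM in chow. Both overlapped, and their calls hung on the chow library used: without chow 1, Sox4 (1.00, adjusted p = 0.00768) and Il7r (1.28, adjusted p = 0.0332) were higher in HFD + L-NAME, and without chow 2, Sox4 was lower (-0.69, adjusted p = 0.0292). Tcf7 in cluster 3 was at 5.21 CPM in NO2-OA, 2.19 and 1.01 CPM in HFD + L-NAME and 1.99 and 4.39 CPM in chow. In the remaining B-like cells Il7r was at 4.64 CPM in NO2-OA, 2.06 and 1.40 CPM in HFD + L-NAME and 4.19 and 4.57 CPM in chow, below both chow libraries in HFD + L-NAME but at the level of monocyte-like cells. There 3 of the 8 members (Bach2, Il7r and Tcf7) had both HFD + L-NAME libraries below both chow libraries and 0 had both above, beside 13% and 11.7% of all genes.

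**Figure D5:**
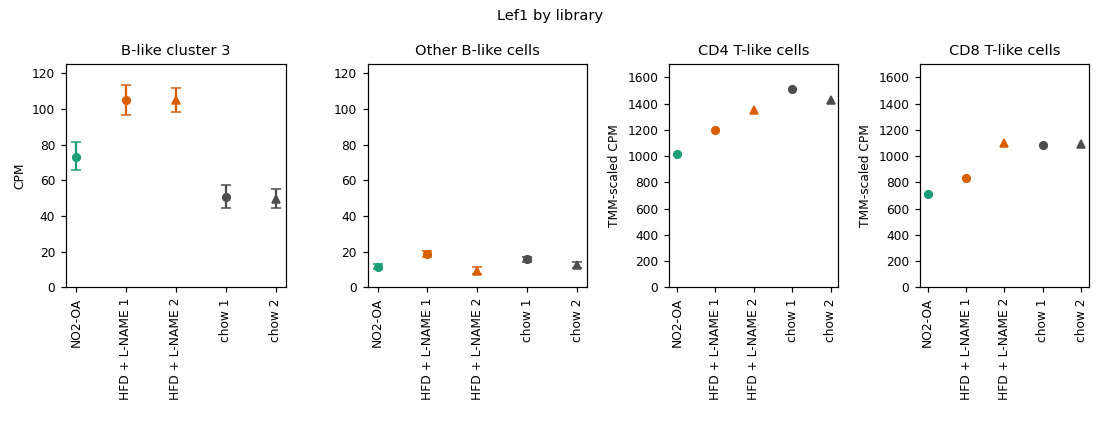
Lef1 in each library in B-like cluster 3 and in the other B-like cells (CPM, bars are exact 95% Poisson intervals) and in CD4 and CD8 T-like cells (TMM-scaled CPM), each axis from 0. In cluster 3 both HFD + L-NAME libraries are at 105, NO2-OA is at 73.2 and both chow libraries are near 50, while in CD4 T-like cells chow is the highest.

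In monocyte-like cells the T cell members were rare. Lef1 in classical monocyte-like cells rested on 32 UMIs in NO2-OA, 8 and 1 in HFD + L-NAME and 26 and 24 in chow, at 3.64 CPM in NO2-OA, 1.58 and 0.624 CPM in HFD + L-NAME and 9.09 and 5.53 CPM in chow (-2.46 ± 0.65 for HFD + L-NAME over chow, adjusted p = 0.597, and -2.80 with an adjusted p of 0.044 without chow 2). Bach2 there was at 54.5 CPM in NO2-OA, 77.3 and 77.4 CPM in HFD + L-NAME and 56.6 and 40.8 CPM in chow, and Satb1 at 23.0 CPM in NO2-OA, 49.2 and 21.2 CPM in HFD + L-NAME and 18.5 and 13.8 CPM in chow (1.41 with an adjusted p of 0.00733 without chow 1). Of 7 members tested, 2 (Bach2 and Satb1) had both HFD + L-NAME libraries above both chow libraries and 2 (Lef1 and Tcf7) had both below, beside 14.5% and 15.0% of all genes. In this class 0.00851% of 11755 genes passed for HFD + L-NAME over chow and 0.0255% for NO2-OA over HFD + L-NAME, none of them a member. Foxp1 was the member with the highest level there. It stood at 862 CPM in NO2-OA, 777 and 875 CPM in HFD + L-NAME and 823 and 1023 CPM in chow, with overlapping groups. Foxo1 had a UMI in 35.1% to 48.0% of these cells before thinning. Non-classical monocyte-like cells had Foxp1 at 1047 CPM in NO2-OA, 963 and 935 CPM in HFD + L-NAME and 991 and 1189 CPM in chow. It was 1 of 7 members tested there with both HFD + L-NAME libraries below both chow libraries, beside 13.5% of all genes. No member had both above, beside 15.1%.

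Platelet-like cells of the NO2-OA library had the highest Il7r level of the 5 libraries in that class, at 60.1 CPM in NO2-OA, 7.70 and 2.28 CPM in HFD + L-NAME and 14.1 and 14.6 CPM in chow. Bach2 had a like order there, at 164 CPM in NO2-OA, 50.3 and 53.3 CPM in HFD + L-NAME and 75.1 and 141 CPM in chow. Lef1 was highest in NO2-OA too, at 32.0 CPM in NO2-OA, 7.24 and 1.82 CPM in HFD + L-NAME and 19.8 and 5.48 CPM in chow, as was Tcf7, at 8.01 CPM in NO2-OA, 4.53 and 0.911 CPM in HFD + L-NAME and 7.28 and 5.48 CPM in chow. The NO2-OA values rested on 100 cells and, for Il7r, on 15 UMIs in 4 of them. Summed T cell markers in the class, as unscaled CPM, were at 181 CPM in NO2-OA (2 of 8 at 0), 129 and 144 CPM in HFD + L-NAME (none at 0) and 168 and 239 CPM in chow (0 and 1 at 0). Their part in the values was not tested.

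For NO2-OA over HFD + L-NAME neither Il7r (3.57 ± 0.70, adjusted p = 0.0985) nor Bach2 (1.66 ± 0.49, adjusted p = 0.579) passed in platelet-like cells, beside 0.031% of 6458 genes that did. For HFD + L-NAME over chow 0.0155% did, none of them a member. With the replicate number as a block both passed for NO2-OA over HFD + L-NAME (Il7r 3.28, adjusted p = 0.00085; Bach2 1.91, adjusted p = 0.000179), and Bach2 also for HFD + L-NAME over chow (-0.96, adjusted p = 0.0128). The block again leaves less of the 5 libraries to estimate the spread, so these p call for caution. Il7r also passed in edgeR with finer clusters (3.88, adjusted p = 0.00253). Without HFD + L-NAME 1 its change was 4.68 (adjusted p = 0.00312), with 1 library on each side and the spread taken from chow alone, and without chow 1 it was 3.62 (adjusted p = 0.00015). Of the 8 members, 4 (Bach2, Il7r, Satb1 and Tcf7) had both HFD + L-NAME libraries below both chow libraries and 0 had both above, beside 16.3% and 13.5% of all genes.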

How the data were processed

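The authors deposited UMI counts per gene and cell barcode for each library, made with Cell Ranger 7.1.0 per the file headers; the submitters' processing notes name bcl2fastq, Cell Ranger and mm39. Whether intron reads were counted is not given in the sources used here.

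Barcodes with at least 200 genes and under 10% mitochondrial UMIs were kept, which left 14484 (NO2-OA), 11917 and 7687 (HFD + L-NAME) and 17255 and 10685 (chow). Scrublet scores removed 6.79% to 14.4% of them as predicted doublets. Cells were clustered with scanpy 1.11.5 and leidenalg 0.10.2 without the 8 genes and named from marker lists; naming thresholds and the T-like sub-clustering were set after the data were seen. Raw counts were summed per class and library and tested with edgeR 4.0.16 (quasi-likelihood, TMM, Benjamini-Hochberg, threshold 0.05) in R 4.3.3, with DESeq2 1.42.0 as an alternative. SE is the log2 change over the root of F. All 5 libraries entered each condition fit, so the 1 NO2-OA library is assumed to vary like the others. An exact permutation test of 2 against 2 libraries cannot go below 0.33. Classes needed 50 cells in every library. The HFD + L-NAME over chow test was also run on simulated counts of B-like, CD4 T-like and CD8 T-like cells. Those counts held no effect of the replicate number, and the outcome is not given here. The splits and the differences between classes were not simulated.

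The members and lists were chosen with earlier results of these data known. All 8 members were named; of each list, up to 4 called genes by smallest p, apart from genes that are not reported here.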

Additional observations from a re-analysis of the deposited data

Results flagged for a closer look

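Lef1 was singled out because its change in HFD + L-NAME over chow was called as different between cell classes. Those calls were CD4 T-like over B-like cells (-1.23 on the log2 scale, edgeR adjusted p = 0.00936) and CD8 T-like over B-like cells (-1.20, adjusted p = 0.00174). They are the calls given above and not a further test. Both were lost with finer clusters, and without B-like cluster 3 the differences were -0.21 and -0.21.

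Lef1 also lay on opposite sides of chow, without overlap between libraries, in several classes, although its change passed in none of them after adjustment. Both HFD + L-NAME libraries lay above both chow libraries in B-like cells (1.05) and in B-like cluster 3 (1.05), as they did for 12% and 12.9% of all genes. Both lay below both chow libraries in CD4 T-like cells (-0.20) and in classical monocyte-like cells (-2.46), as they did for 12.5% and 15.0% of all genes. In classical monocyte-like cells Lef1 rested on 8 and 1 UMIs in HFD + L-NAME and 26 and 24 in chow. The differences of classical monocyte-like cells from B-like cells and from cluster 3, and of CD4 T-like cells from cluster 3, were not tested.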

How the results depend on the processing

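Member counts in the 3 splits, both directions together, stayed within 1.5 times of the reported ones under every alternative run, but the 1 lower call of the Vpreb3 split (Satb1) was lost at resolution 2. Members called for HFD + L-NAME over chow in the 6 classes (0 as reported) numbered 1 with no filter on low counts (Lef1 in B-like cells), 2 with the replicate block (Lef1 in B-like cells, 1.02, adjusted p = 0.0245, and Bach2 in platelet-like cells) and 0 to 2 with 1 library left out. For NO2-OA over HFD + L-NAME (0 as reported) they numbered 1 with no filter, 2 with the replicate block (Il7r and Bach2 in platelet-like cells), 1 at resolution 2 and 0 to 1 with 1 library left out. Genes called for HFD + L-NAME over chow (2 as reported, summed over classes) numbered 1 with DESeq2 size factors, 218 with no filter, 39 with DESeq2, 117 with the replicate block, 1 with a mitochondrial share below 5%, 0 with predicted doublets kept, 1 with equal cells per library, 4 at resolution 2 and 3 to 968 with 1 library left out. For NO2-OA over HFD + L-NAME (5 as reported) they numbered 290 with no filter, 130 with DESeq2, 402 with the replicate block, 10 below 5% mitochondrial share, 9 with equal cells, 2 without memory sub-clusters and 69 to 304 with 1 library left out. Member calls between classes (2 as reported, both Lef1) were counted over pairs of classes. They numbered 4 with no filter, 0 at resolution 2 and 1 without B-like cluster 3 (Il7r, 1.21, edgeR adjusted p = 0.0492). With 1 library left out they varied. For the NO2-OA effect (0 as reported) they numbered 1 with no filter and 1 without cluster 3, and varied with 1 library left out. In cluster 3 alone (0 as reported) member calls for HFD + L-NAME over chow numbered 1 with no filter, and varied with 1 library left out. Between cluster 3 and other B-like cells (0 as reported) they numbered 2 with no filter, and varied likewise. The causes were not tested.

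Uncalled changes turned round: Satb1 in B-like cells for NO2-OA over HFD + L-NAME (-0.0011, replicate block), Lef1 in other B-like cells (-0.062, replicate block) and Tcf7 in the Vpreb3 split (0.041 with members among the variable genes, 0.11 with at least 2 UMIs). With 1 library left out, Lef1 in CD8 T-like cells ranged from -0.38 to 0.010, Satb1 in B-like cells from -0.15 to 0.51, Satb1 in CD8 T-like cells for NO2-OA from -0.011 to 0.97, Lef1 in other B-like cells from -0.66 to 0.45, Lef1 in CD4 over CD8 T-like cells from -0.14 to 0.054 and Tcf7 in the Vpreb3 split from -0.23 to 0.12. Replicate number 1 is held by 1 library of each of the 3 groups and number 2 by 1 of HFD + L-NAME and 1 of chow, and nothing in the labels says that a number marks a shared animal or day. The alternatives that leave out clusters, and cluster 3 as a unit, were chosen after seeing the data. Low UMI counts limit Sox4, Tcf7 and Il7r in B-like cells and Lef1 in monocyte-like cells.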
